A study of Homo sapiens with 6 samples.

Results

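The assembled transcripts without annotation were the 749 rows, of 1437 in the deposited lncRNA table, whose identifier starts with MSTRG. StringTie gives such identifiers to transcripts that it builds from aligned reads and merges over samples. The identifier up to the second dot names a locus and the last number an isoform, which placed the 749 transcripts in 670 loci. The other 688 rows carried Ensembl identifiers of annotated transcripts. The table gives no name, position, strand or sequence for an MSTRG transcript, so it does not show whether one lies alone or is an unlisted isoform of a known gene.

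The samples were 2 human cell lines with 3 samples each. HBE, also spelled HEB in the labels, is a normal lung epithelial line and was grown in RPMI-1640 with fetal bovine serum. A549 is a lung adenocarcinoma line and was grown in DMEM with the same serum, so line and medium cannot be told apart. No genetic or drug treatment is given for either line, and each is a single line standing for its kind of cell. The study asked which lncRNAs are expressed abnormally in non-small cell lung cancer.

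Long non-coding RNAs are transcripts of at least 200 bases with no evident protein product. Many are made in few cell types and at lower levels than mRNAs, so assembly from the reads of a given cell often finds transcripts that a catalogue lacks. An assembler works from read coverage and splice junctions. Where several isoforms overlap, each read must be shared among them by a model, so the level of a locus is better determined than that of an isoform.

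The authors had chosen the rows for a difference between the lines in the same samples, and the calls below describe that choice. All 749 MSTRG transcripts passed an adjusted p of 0.05 (edgeR quasi-likelihood test with Benjamini-Hochberg adjustment over the whole table, n = 3 per line), and 99.9% of the whole table did. Of them, 384 were higher in A549, or 51.3%, against 47.6% of the whole table called higher in A549. The other 365, or 48.7%, were higher in HBE, against 52.3% of the table. The ranges of the lines did not overlap for 744 of the 749, where 99.2% of the table had no overlap. In the authors' deposited table, too, 384 MSTRG transcripts were marked up and 365 down. Nothing in the labels says whether a line's samples were separate cultures, so a p covers the spread among these samples, which may be technical. In RNA from whole cultures, fewer cells that make a transcript and less of it per cell cannot be told apart.

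Library sizes solved from counts, FPKM and annotated lengths were 49376413 to 56218149 in HBE and 55443876 to 57664347 in A549. 1 count was worth 0.0173 to 0.0203 CPM, the count scaled to library size alone. The lncRNA markers looked at were of airway epithelium, of alveolar and club cells, and of lung and foregut. A transcript of MIR205HG, the host gene of miR-205, had 4224, 10283 and 10429 counts in HBE and none in A549. Both transcripts of SFTA1P, a surfactant-associated pseudogene, also had counts in HBE and none in A549. A transcript of FENDRR, listed for lung and foregut and not for epithelium, had 53, 70 and 56 counts in HBE and none in A549. As the rows were chosen for a difference, a marker alike in both lines would not be listed. The protein-coding markers that define either line were not analysed here.

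The MSTRG transcripts together were a small part of each library. Their counts made up 0.468%, 0.128% and 0.0780% of the libraries of HBE replicates 1, 2 and 3. In A549 they made up 0.187%, 0.166% and 0.397% of those of replicates 1, 2 and 3. The ranges of the lines overlapped, and within each line 1 sample stood far above the others. A few transcripts set these sums. The 5 most abundant by CPM held 34.7% to 89.5% of the MSTRG level in HBE and 77.8% to 91.8% in A549. Without these 5, a comparison chosen after the values were seen, the sum ranged from 493 to 518 CPM over the HBE samples and from 328 to 380 CPM over those of A549. The samples of a line then lay close together and the lines did not overlap. The 5 were MSTRG.14171.2 and the listed transcripts of the locus MSTRG.31835. Much of the remaining gap again lay in abundant loci. MSTRG.20319 had 101, 79.5 and 40.5 CPM in HBE replicates 1, 2 and 3 and 11.5, 10.3 and 11.0 in those of A549. MSTRG.51404 went the other way and averaged 42.5 CPM in A549. Whether the rarer transcripts differed as a set was not tested.

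Most members were rare. The mean level in the higher line had a median of 0.486 FPKM (fragments scaled to transcript length and library size), with quartiles of 0.325 and 0.828. It was below 1 FPKM for 617 of 749 transcripts, or 82.4%, against 68.5% of the annotated rows. It reached 10 FPKM for 13 transcripts, 2 higher in A549 and 11 higher in HBE. The median number of counts over the 3 samples of the higher line was 68, against 106 for annotated rows. Levels of the 2 directions were alike in the middle, with medians of 0.486 FPKM for both, and differed at the top. These contrasts with annotated rows are descriptions without a test.

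**Figure D1:**
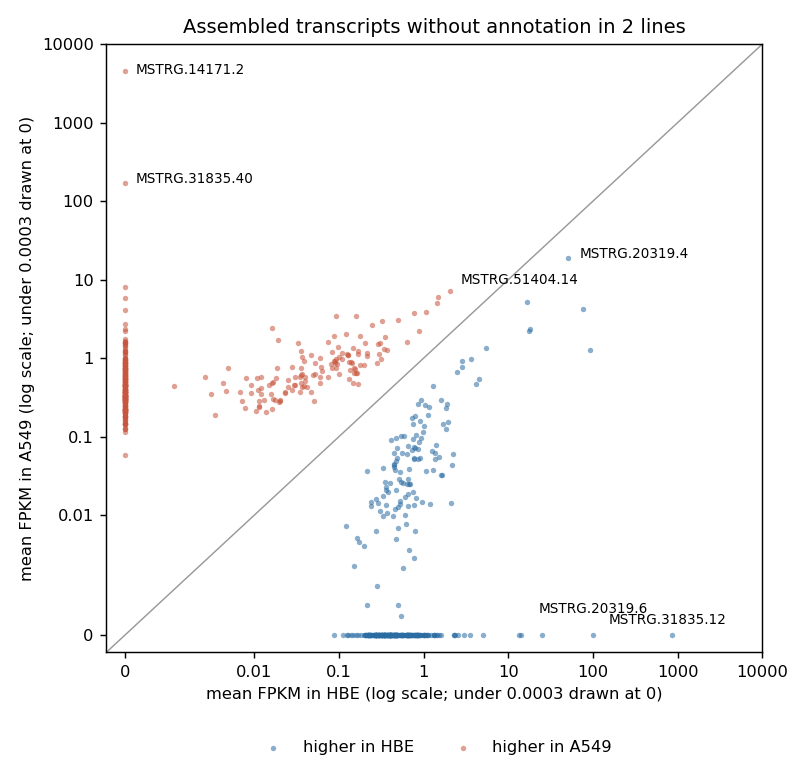
Mean FPKM of each of the 749 MSTRG transcripts in HBE (x axis) and A549 (y axis), both on log scales, with values under 0.0003 drawn at 0 and 1 point per transcript. The 249 transcripts with no count in HBE stand on the left edge and the 237 with no count in A549 on the bottom edge, and 11 of the 13 transcripts that reach 10 FPKM are higher in HBE.

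Of the 749 transcripts, 748 had a count in every sample of the higher line. The exception was MSTRG.4643.4, with 112, 0 and 21 counts in HBE. In the lower line, 486 transcripts, or 64.9%, had no count in any sample, against 46.9% of annotated rows. By line, 249 had none in HBE and 237 none in A549. A further 105 had a count in 1 sample of the lower line, 63 in 2 samples and 95 in all 3, so 95 transcripts were seen in all 6 samples. The share seen in all 3 samples of the lower line was 12.7%, against 29.2% of annotated rows.

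Depth moved with this share. Among transcripts with under 50 counts in the higher line, 84.8% of MSTRG and 81.7% of annotated transcripts had no count in the other line. With 50 to 149 counts the shares were 62.3% and 51.5%, and with at least 150 counts they were 37.3% and 23.3%. The MSTRG share was the higher of the 2 at each depth. Whether depth within these classes accounts for the rest was not tested. For a transcript with no count in a line, a fold can be given only as a bound, taken against a floor of 3 counts summed over its 3 samples. The median bound over the 486 was 18.3-fold, the smallest 6.21-fold, and 29 exceeded 100-fold. Bounds allow for counting error in the line with no count only. They do not cover counting error in the higher line, or error in sharing reads among isoforms of a locus.

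The lengths of MSTRG transcripts are not in the table but can be solved from it, as count divided by FPKM and library size. On 680 annotated transcripts the solved length was within 10% of the GENCODE length in 99.9% of cases, with a median ratio of 1.01. The library sizes had been fitted to the GENCODE lengths of annotated rows. The median ratio therefore follows from the fit, and only the spread around it is a check. For 735 MSTRG transcripts the solved length had a median of 905 bases, quartiles of 612 and 1405, and a range of 205 to 5912. None was below 200 bases, the usual lower limit of a lncRNA. Annotated rows had a median solved length of 1602 bases. Transcripts above 3000 bases numbered 19 among MSTRG rows and 118 among annotated rows. MSTRG transcripts were the shorter ones at each depth, with medians of 646 against 1201 bases under 50 counts and of 1571 against 1966 bases at 150 counts or more. Those higher in A549 had a median of 829 bases and those higher in HBE of 955.

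**Figure D2:**
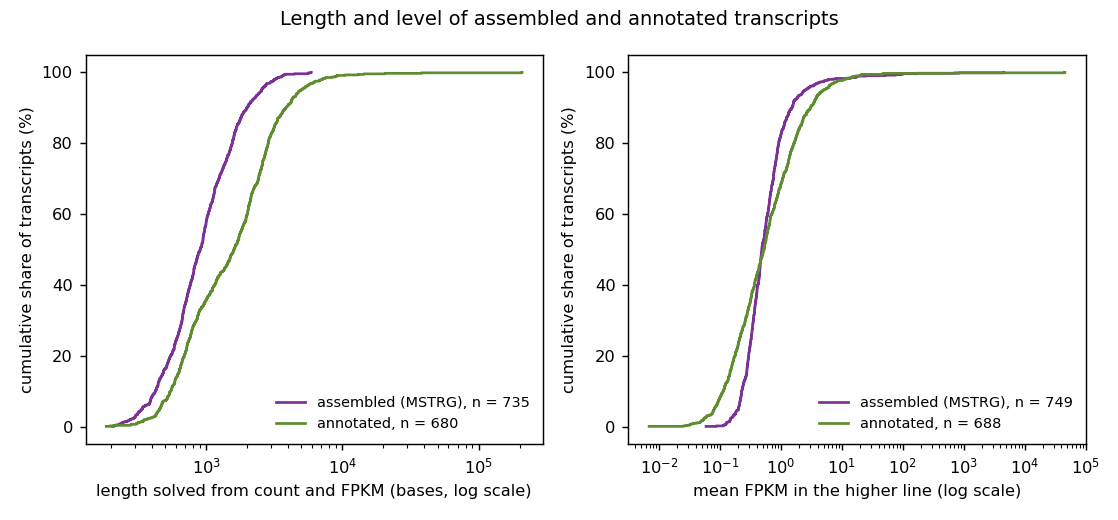
Cumulative share of MSTRG (purple) and annotated (green) transcripts by solved length in bases (left) and by mean FPKM in the higher line (right), with log x axes. The MSTRG curve lies to the left for length, with medians of 905 and 1602 bases, while the levels cross near their medians of 0.486 and 0.527 FPKM and the MSTRG curve is the steeper one.

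Among transcripts higher in A549, MSTRG.14171.2 had the highest level of any MSTRG transcript. Its solved length was 435 bases. It had no count in HBE and 3189, 2572 and 7921 FPKM in A549 replicates 1, 2 and 3, averaging 4561 ± 2926 FPKM (SD, n = 3). Replicate 3 stood well above the others, with 57.9% of the level. The A549 level of MSTRG.14171.2 exceeded the HBE floor at least 105019-fold, and at least 65790-fold once that sample was left out, which lowered the mean from 1984 to 1253 CPM. Of its locus, no other transcript was in the table.

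MSTRG.31835.40 followed, with no count in HBE and 99.2, 188 and 225 FPKM in A549, a bound of 7736-fold. Other isoforms of its locus had 287932 counts in HBE, so this bound holds only if reads were shared correctly among them. Apart from MSTRG.14171.2, the other transcripts higher in A549 had a mean A549 FPKM more than 10-fold below that of MSTRG.31835.40. By CPM the gap was smaller, with A549 means of 147 for MSTRG.31835.40 and 42.5 for MSTRG.51404.14. MSTRG.30721.1 had 18.1, 4.62 and 1.36 FPKM in A549 and no count in HBE. Its bound of 163-fold rested on replicate 1 and was 60.8-fold without it. MSTRG.37484.1 had 7.51, 7.32 and 2.79 FPKM in A549, at least 108-fold higher. MSTRG.37474.1 had 7.88, 2.69 and 1.83 FPKM in A549. Its bound was 186-fold, and 102-fold without replicate 1. MSTRG.24625.12 and MSTRG.5295.1, the others in the top 5 by CPM with no HBE count, were at least 199-fold and 178-fold higher.

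Other abundant A549 transcripts were present in both lines. MSTRG.51404.14, the longest solved at 5912 bases, had 1.23, 1.84 and 3.01 FPKM in HBE and 8.04, 6.83 and 6.72 in A549. The A549 samples lay close together and above every HBE sample, and the log2 fold change was 1.83 (SE 0.53, edgeR adjusted p = 0.00195). MSTRG.10380.1 rose from 0.771 ± 0.0982 to 3.80 ± 1.02 FPKM (SD, n = 3 each) and MSTRG.25261.3 from 1.06 ± 0.223 to 3.86 ± 0.509 FPKM. MSTRG.49123.1 rose from 1.43 ± 0.376 to 4.99 ± 1.86 FPKM. MSTRG.25891.2 had 1.28, 0.749 and 2.41 FPKM in HBE and 9.94, 4.15 and 3.79 in A549, a log2 fold change of 2.00 (SE 0.67). Without A549 replicate 1 it was 1.42 and no longer passed, with an edgeR adjusted p of 0.0788.

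Among transcripts higher in HBE, MSTRG.31835.12 was first, with 2184, 285 and 68.6 FPKM in replicates 1, 2 and 3 and no count in A549. Its samples differed by more than 10-fold, and 86.1% of its level was in replicate 1. The bound of 85121-fold fell to 17047-fold without that replicate, and the mean from 1427 to 298 CPM. Other isoforms of its locus had 26665 counts in A549, so the bound also depends on how reads were shared. MSTRG.20319.6, solved at 434 bases, had 168, 98.2 and 36.5 FPKM in HBE and none in A549. Its bound was 2536-fold, and 1667-fold without replicate 1.

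From the locus of MSTRG.31835.12, isoform 13 had 159, 43.3 and 74.9 FPKM in HBE and 2.19, 0.812 and 0.812 in A549, a log2 fold change of -6.17 (SE 0.76). It was -5.53 without HBE replicate 1, whose absence lowered the HBE mean of MSTRG.31835.13 from 164 to 105 CPM, and -6.81 without A549 replicate 1. MSTRG.31835.18 had 113, 106 and 11.1 FPKM in HBE and 5.49, 3.63 and 3.49 in A549, with HBE replicate 3 near the A549 range, and a log2 fold change of -4.19 (SE 0.73, edgeR adjusted p = 2.22e-05).

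The 10 HBE transcripts of highest FPKM also held MSTRG.2882.1 and MSTRG.30638.1, which had no count in A549. MSTRG.2882.1 had 23.6, 38.4 and 13.0 FPKM in HBE and was at least 1358-fold higher. MSTRG.30638.1 had 10.6, 11.3 and 19.9 FPKM and was at least 1382-fold higher. MSTRG.6006.4, in the top 5 by CPM with no A549 count, was at least 479-fold higher. No sample of HBE was without these transcripts.

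Other abundant HBE transcripts kept a level in A549. MSTRG.3054.1 fell from 17.9 ± 6.73 FPKM in HBE to 2.32 ± 0.865 in A549 (SD, n = 3 each). MSTRG.27918.1 fell from 17.5 ± 10.3 to 2.24 ± 0.385 FPKM. MSTRG.2948.1 had 16.5, 20.1 and 13.8 FPKM in HBE and 5.61, 5.55 and 4.21 in A549, a log2 fold change of -1.71 (SE 0.50). With DESeq2 size factors taken from the table it was -0.33 and did not pass (edgeR adjusted p = 0.484). The call of MSTRG.20319.4, with 48.7, 62.8 and 42.0 FPKM in HBE and 19.5, 17.6 and 18.8 in A549, was lost in the same way. Its log2 fold change was -1.46 (SE 0.50) with solved library sizes, -0.95 with TMM and -0.08 with DESeq2 size factors.

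MSTRG.21162.7, named after its values were seen, was the 1 transcript above 10 FPKM outside those lists. It had 1439, 61 and 43 counts in HBE and 1 count in A549. Of its HBE level, 92.6% was in replicate 1. The ratio to A549 was 1657, with an exact 95% interval of 297 to 65496 that covers counting error only and not the spread between samples. The fitted log2 fold change was -10.13 and became -6.96 without HBE replicate 1. The A549 count was in replicate 2, without which no ratio could be formed.

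**Figure D3:**
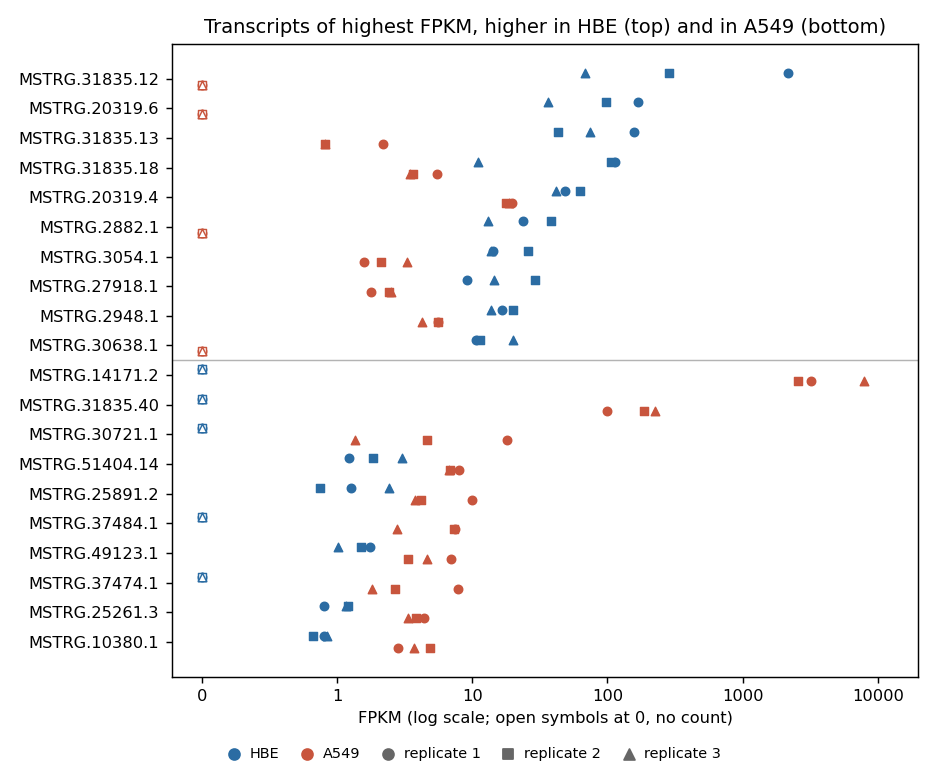
FPKM in every sample (log x axis, open symbols at 0 for no count) of the 10 MSTRG transcripts of highest FPKM in each direction, with HBE in blue, A549 in red and a marker shape per replicate. The lines do not overlap for any of the 20, 4 of the 10 HBE transcripts have no count in A549 and 5 of the 10 A549 transcripts have none in HBE, and MSTRG.31835.12 spans 68.6 to 2184 FPKM within HBE.

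Members varied widely among samples of a line. The coefficient of variation (CV, the SD as a share of the mean) of the CPM in the higher line had a median of 48.5%, against 39.4% for annotated rows. For 342 transcripts, or 45.7%, a single sample held over 50% of the level of the higher line, against 33.7% of annotated rows. With at least 150 counts the shares were 39.1% and 25.4%. Over 80% in 1 sample was seen for 11 transcripts, 9 of them higher in HBE. The sample with the highest level was replicate 1, 2 and 3 for 124, 114 and 127 of the HBE transcripts and for 131, 132 and 121 of the A549 transcripts. So no single library held the top value for most members.

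The ranges of the lines overlapped for 5 transcripts. MSTRG.39737.1 counts were 6, 12, 0 among HBE samples and 226, 157, 9 among A549 samples. MSTRG.18125.15 counts were 3, 12, 29 among HBE samples and 97, 121, 24 among A549 samples. Those of MSTRG.18282.11 were 0, 7, 7 among HBE samples and 94, 77, 6 among A549 samples. In these 3 transcripts A549 replicate 3 was the low sample. MSTRG.34155.13 was low in HBE replicate 3, with 115, 171 and 1 counts for HBE and 8, 0 and 0 for A549, and MSTRG.4643.4 had 2, 0 and 0 counts in A549. All 5 passed the edgeR test, and with limma-voom 4 of them did not, with adjusted p-values of 0.0625 to 0.0853.

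By locus, 614 of the 670 loci, or 91.6%, had a single transcript in the table, against 90.4% of the 602 annotated genes. The other 56 loci held 135 transcripts, 45 of them with 2, 3 with 3 and 8 with 4 to 6. The table lists a selection, and isoform numbers ran up to 56, so other isoforms of these loci were not analysed here. Locus sums and shares are therefore over the listed transcripts only, and unlisted isoforms could change them. In 51 of the 56 loci the transcripts shared a direction, 27 higher in A549 and 24 higher in HBE. Counts summed per locus differed between the lines for 666 of 670 loci, 338 higher in A549 and 328 higher in HBE (edgeR adjusted p under 0.05), where 99.4% of all loci and genes passed.

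The 4 loci whose sums did not pass were MSTRG.14178, MSTRG.27945, MSTRG.51783 and MSTRG.6493. Each had transcripts in both directions, and MSTRG.31835 was the fifth such locus. These 5 were named after their values were seen. As the rows had been chosen for their difference, a shift in isoform use within them follows from the choice.

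MSTRG.31835 was the most abundant locus with several transcripts. Its 3 HBE samples summed to 4184, 760 and 270 CPM and its 3 A549 samples to 99.8, 170 and 202. Every HBE sample lay above every A549 sample, and the log2 fold change was -3.47 (SE 0.88, edgeR adjusted p = 0.000657), or -1.71 without HBE replicate 1 and -2.54 with the replicate number as a block. In A549, isoform 40 made up 85.6%, 95.1% and 96.0% of the listed transcripts of the locus, and isoform 12 had no count. In HBE, isoform 40 had no count and the rest was unevenly split. Isoform 12 made up 88.1%, 63.2% and 42.8% of replicates 1, 2 and 3, and isoform 13 made up 6.75%, 10.1% and 49.3%. Isoform 18 stood at 13.2% ± 11.7 in HBE and 5.96% ± 3.95 in A549 (SD, n = 3 each). Isoforms 12, 13 and 18 were solved at 1687, 1783 and 1909 bases and isoform 40 at 861 bases.

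In MSTRG.14178 isoform 15, solved at 3291 bases, made up 90.5%, 95.7% and 90.9% of the locus in HBE and 11.9%, 34.0% and 20.6% in A549. The locus sum averaged 2.66 ± 1.38 CPM for HBE and 1.31 ± 0.340 for A549 (SD, n = 3 each). The difference did not pass (log2 -1.02, edgeR adjusted p = 0.0803) and passed without HBE replicate 1 (edgeR adjusted p = 0.0148). With DESeq2 size factors its sign turned, at 0.48, without passing. The A549 samples used isoforms 1 and 2 instead, and not alike. Isoform 2 had 46, 5 and 7 counts and isoform 1 had 6, 57 and 46.

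The 3 remaining loci with both directions rested on few counts. MSTRG.27945 had isoform 18 in HBE with 13, 72 and 53 counts and isoform 3 in A549 with 35, 7 and 15. MSTRG.51783 had isoform 2 in HBE with 13, 13 and 22 counts and isoform 10 in A549 with 45, 5 and 47. MSTRG.6493 had isoform 11 in HBE with 78, 2 and 20 counts and isoform 14 in A549 with 9, 20 and 5. Where a sample was left out, the sum of MSTRG.27945 passed without HBE replicate 1 (edgeR adjusted p = 0.0117) and without A549 replicate 1 (edgeR adjusted p = 0.0188). That of MSTRG.6493 passed without HBE replicate 2 (edgeR adjusted p = 0.0261) and without A549 replicate 2 (edgeR adjusted p = 0.0356). With DESeq2 size factors the sum of MSTRG.51783 passed, higher in A549 (edgeR adjusted p = 0.0088).

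Isoform use, the share of each transcript among those listed for its locus, can be compared only where both lines express the locus. Of the 56 loci with several transcripts, 23 had counts in both lines, and isoform use differed in 9 (edgeR's diffSpliceDGE, adjusted p under 0.05 over 114 loci and genes). This was 16.1% of the 56, against 14.9% over all loci and genes tested and 13.8% of annotated genes with several transcripts. The 56 included 33 loci with no count in a line, and such genes were not set apart among annotated genes. The 9 were the 5 loci with both directions and 4 whose transcripts shared a direction.

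In MSTRG.20319, the clearest of those 4, isoform 6 made up 71.8%, 53.7% and 39.2% of the locus in HBE and had no count in A549. Isoform 4, solved at 586 bases against 434 for isoform 6, was then the only listed transcript of the locus with A549 counts (adjusted p = 1.33e-06 by diffSpliceDGE, n = 3 per line). The sum over both isoforms was 101, 79.5 and 40.5 CPM for HBE and 11.5, 10.3 and 11.0 for A549, with every HBE sample above every A549 sample. MSTRG.1154, also among the 10 loci of highest CPM and with 2 transcripts, had 15.0, 11.2 and 15.6 CPM for HBE and 1.93, 4.08 and 3.56 for A549. Its log2 fold change of -2.13 (SE 0.49) passed, but the -0.70 with DESeq2 size factors did not (edgeR adjusted p = 0.156). In MSTRG.10732 isoform 9 had 64, 26 and 38 counts in HBE and none in A549, while isoform 4 had counts in every sample (adjusted p = 0.00813 by diffSpliceDGE, and 0.0536 without A549 replicate 2). In MSTRG.441 isoform 3 had no count in HBE and made up 3.47%, 7.61% and 12.1% of the locus in A549 (adjusted p = 0.0301 by diffSpliceDGE). In MSTRG.31066 isoform 11 was the 1 of 4 transcripts with A549 counts, at 2, 2 and 15 (adjusted p = 0.0373 by diffSpliceDGE). The call of MSTRG.441 was lost without A549 replicate 2 or 3, without HBE replicate 2 or 3, and with the replicate block (adjusted p of 0.0667, 0.0901, 0.148, 0.0893 and 0.064). That of MSTRG.31066 was lost without any 1 of the A549 samples or HBE replicate 1, with adjusted p of 0.0895 to 0.622.

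**Figure D4:**
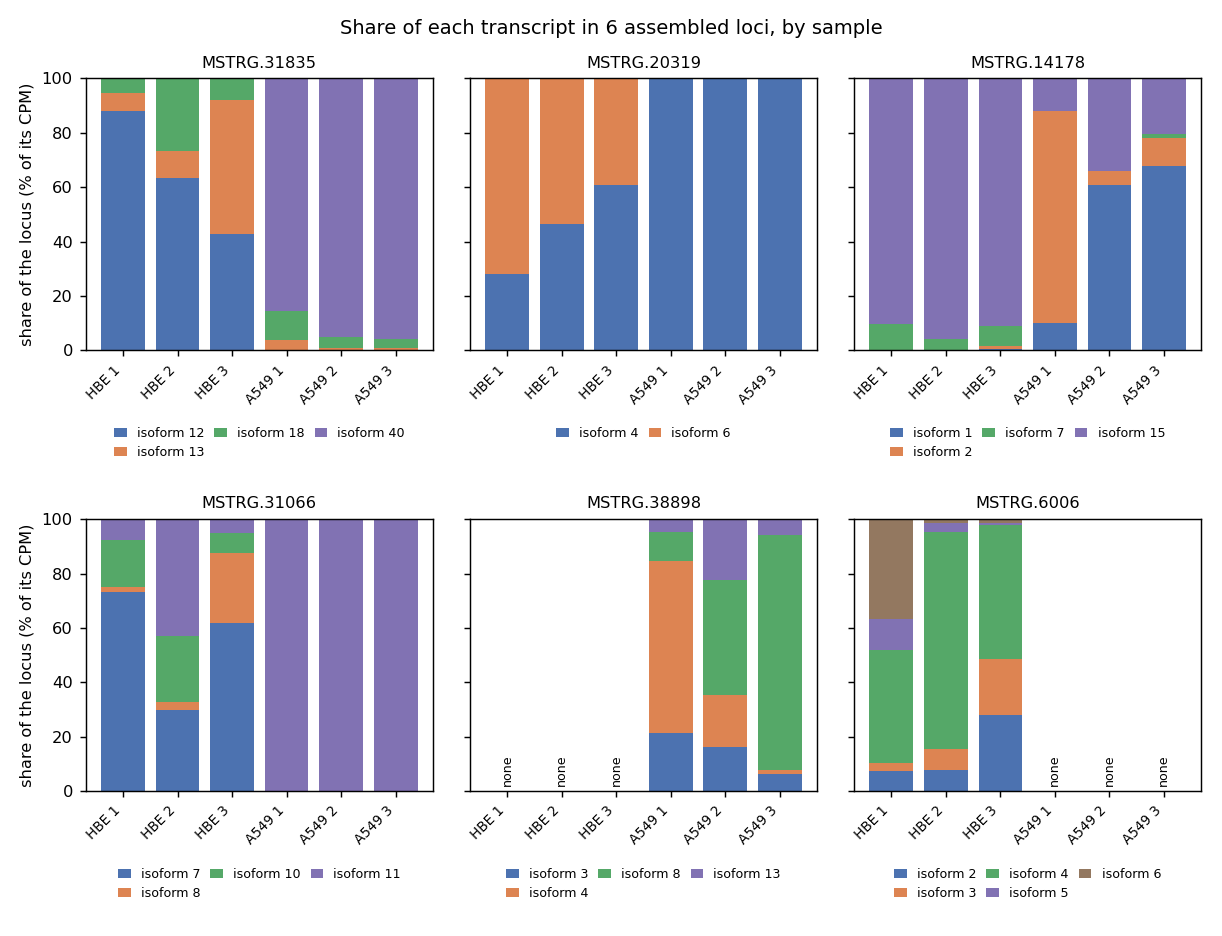
Share of each transcript in the CPM summed over the listed transcripts of 6 loci, as stacked bars per sample. HBE is on the left and A549 on the right of each panel, and none marks a sample with no count for the locus. The main isoform changes between the lines in MSTRG.31835, from 88.1%, 63.2% and 42.8% for isoform 12 in HBE to at least 85.6% for isoform 40 in A549, and changes between samples of A549 in MSTRG.38898.

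The 3 loci with at least 5 transcripts had nearly all their counts in 1 line. MSTRG.48116 had 6 transcripts, all higher in A549, with 1.41, 3.08 and 9.47 CPM there and 2 counts in HBE. Its mean was 4.65 CPM, and 2.25 CPM without A549 replicate 3. MSTRG.6006 had 5 transcripts in HBE, summing to 6.26, 17.0 and 20.0 CPM, with no count in A549. MSTRG.5536 had 5 in A549, summing to 2.34, 2.81 and 2.05 CPM, with no count in HBE. Of the loci with 4 transcripts, MSTRG.31066 averaged 6.74 ± 1.84 CPM for HBE and 0.111 ± 0.129 for A549 (SD, n = 3 each).

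Within a line the leading isoform among those listed was not always the same from sample to sample. Over 55 loci, 62 pairs of locus and line had at least 10 counts in every sample. In 33 of these the same transcript led in all 3 samples, in 29 it did not, and in MSTRG.48116 each A549 sample had another leader. Counting error was not allowed for, and annotated genes were not counted beside them. A tie alone made the change in MSTRG.47134, with 43 and 43 counts in A549 replicate 3. The same held for MSTRG.5607, with 27 and 27 counts in HBE replicate 3. In MSTRG.38898, named after its values were seen, isoform 4 had 133, 31 and 4 counts in A549 replicates 1, 2 and 3 while isoform 8 had 22, 68 and 227. The sum of that locus was 3.75, 2.90 and 4.54 CPM, a narrow range beside those of its isoforms. In MSTRG.6006 isoform 4 led in all 3 HBE samples, at 41.8%, 79.8% and 49.3%, but isoform 6 moved between 36.6%, 1.25% and 1.52%.

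Over the 62 pairs the CV of the locus sum had a median of 31.0%. That of its transcripts, over those with at least 30 counts in the line, had a median of 46.3%. Where 1 transcript held nearly all counts the values hardly differed, as in MSTRG.20319 in A549 with 5.14% for both. The sum varied less than the median transcript in 49 pairs and more in 11. A sum often varies less than its parts when they do not move together. A gap in this direction can therefore come from summing alone, and its size was not tested against that. A sum can vary more than the median part where the most abundant transcript varies most. The widest spread was that of MSTRG.31835 in HBE, with a CV of 123% for the locus.

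**Figure D5:**
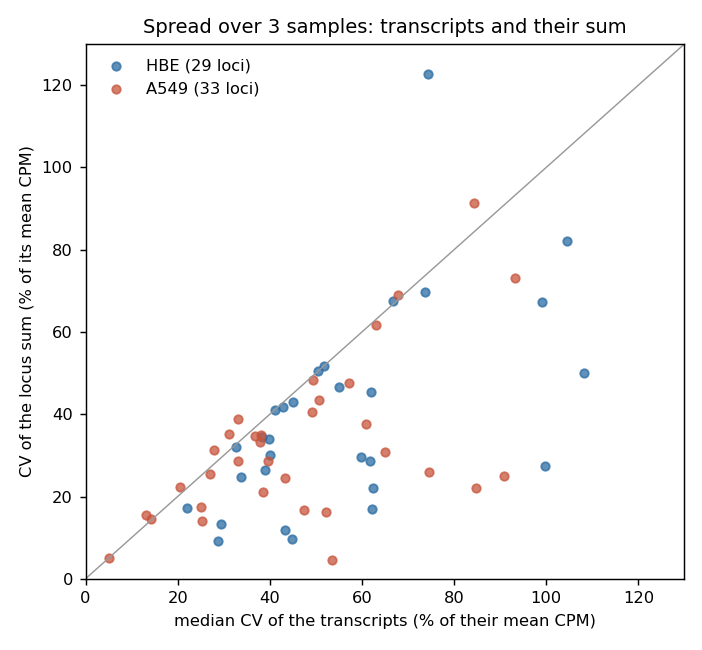
CV over the 3 samples of a line for the locus sum (y axis, % of its mean CPM) against the median CV of its transcripts (x axis, %), 1 point per locus and line, with the line of equal values. In 49 of 62 points the sum varies less, and MSTRG.31835 in HBE stands above the line at 123%. Only transcripts with at least 30 counts in the line enter the x axis.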

How the data were processed

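RNA of 6 samples, 3 of HBE and 3 of A549, was sequenced from mRNA libraries of total RNA, per the labels' protocols. The submitters' processing notes list HISAT2, StringTie, DESeq2 and GRCh38 but give neither version nor role. The deposited table gives estimated counts per transcript as whole numbers, the authors' FPKM, a p-value and a log2 fold change (A549 against HBE). Rows were selected by the authors, with p-values up to 0.00997 in the authors' deposited table. The sources used here state neither whether that p was adjusted nor whether counting used the strand.

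With lengths from GENCODE release 29, the product of FPKM, length and library size, taken up to the next whole number, came within 1 of the deposited count for 99.6% to 100% of annotated values above 0 in a sample. The library sizes that fitted most values were used as the scaling. Rounding up turned small estimates into 1: of 2762 nonzero MSTRG values, 48 were 1 count, and 27 of these stood for an estimate under 0.5. Lengths were medians over samples with at least 10 counts.

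The whole table was fitted with edgeR 4.0.16 in R 4.3.3 (quasi-likelihood, no filter, no block), per transcript and on counts summed per locus or gene, with Benjamini-Hochberg adjustment at 0.05. Isoform use was tested with diffSpliceDGE. Scripts were tested on simulated data. SE is the log2 fold change divided by the square root of F. DESeq2 1.42.0, limma 3.58.1 (voom), TMM, a count filter, a replicate block and leaving out each sample were the alternatives. Named transcripts were, per direction, the 10 of highest FPKM and the 5 of highest CPM with no count in the other line. The 5 with overlapping lines were also named. Named loci were the 10 of highest CPM, the 5 with most transcripts and those with transcripts in both directions that averaged 50 counts. Members, rules and tests were chosen with earlier results of these data known. No pair of samples of a line agreed within sampling noise. MSTRG sequences and positions were not used here.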

Additional observations from a re-analysis of the deposited data

How the results depend on the processing

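A filter of 10 or more counts in 3 or more samples left 442 transcripts, all of which passed, and 409 of 413 loci. It moved the share higher in A549 from 51.3% to 44.8% and left 5 loci with a call for isoform use. Fewer transcripts were then tested. Among transcripts that averaged 50 or more counts in their higher line, 1 locus had transcripts in both directions, MSTRG.31835. Leaving out 1 sample gave 737 to 747 transcripts, 657 to 664 loci and 6 to 9 loci with a call for isoform use, and 487 to 521 transcripts with no count in a line. TMM, DESeq2 size factors, the DESeq2 Wald test and limma-voom gave 705 to 744 transcripts. TMM and DESeq2 size factors, taken from a table chosen for differences, raised log2 fold changes by a median of 0.51 and 1.38 for the 628 rows with counts in both lines. Of the 333 alternative values for the 28 named transcripts, 10 lost the call and 0 changed sign.

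Samples with the same number did not stand out: correlations over 915 transcripts were 0.0202, -0.0018 and -0.056 for numbers 1, 2 and 3. Pairs with unlike numbers had -0.0655 to 0.0725. Whether samples with the same number shared a batch was not tested. With the replicate number as a block, 704 transcripts, 620 loci and 8 loci for isoform use passed. Counts of 20 to 68 over 3 samples, the lowest and the median for the higher line, limit what can be said of most members.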
